A study of Equus caballus with 25 samples.

Results

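ACTN1, VASP, MSN and ARHGEF2 are 4 genes of the actin cytoskeleton, and they were chosen by gene name. The array carried 7 Ensembl transcripts of them among 7238: ENSECAT00000021811 and ENSECAT00000021819 of ACTN1, ENSECAT00000008154 and ENSECAT00000008066 of VASP, ENSECAT00000013753 of MSN, and ENSECAT00000015207 and ENSECAT00000015220 of ARHGEF2. All 7 passed the filter on dim transcripts, which left 4930 transcripts to test. The symbols came from the study's own lists of transcripts that differed between the same horses, so a difference of these 4 genes between groups is not independent evidence. The study itself names these 4 among the genes higher in MEA and places them in tight junction organization.

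RNA from cells of bronchoalveolar lavage (BAL) fluid, the fluid washed out of the small airways and alveoli, was measured in 25 horses, with 1 one-color array per horse. The CTRL group (labeled Control) held 7 clinically healthy horses. The MEA group (labeled IAD, inflammatory airway disease, now called mild equine asthma) held 10 horses, and the SEA group (labeled RAO, recurrent airway obstruction, now called severe equine asthma) held 8. Diseased horses were naturally occurring clinical cases. The CTRL horses were all standardbreds, whereas most MEA and SEA horses were saddle horses, and the SEA horses were older than both other groups. Breed therefore changed with disease, and age with SEA, and these cannot be told apart from it here.

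Actin filaments form the scaffold that lets leukocytes crawl into the airways and engulf particles. Alpha-actinin 1 (ACTN1) crosslinks filaments and ties them to adhesion sites, and VASP speeds the growth of filament ends at the leading edge. Moesin (MSN) links filaments to proteins of the plasma membrane and is the main protein of its family in leukocytes, and ARHGEF2 (also known as GEF-H1) is a microtubule-bound exchange factor that activates the GTPase RhoA when it is released. None of the 4 genes is restricted to leukocytes, and epithelial cells also make these proteins.

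The probes are shown because they decide what the 7 transcripts can tell. Both transcripts of ACTN1 had the same probe sequence, and so had both transcripts of VASP and both of ARHGEF2, so that the 7 transcripts rested on 4 sequences. Each probe was 60 bases long and is given 5′ to 3′ as listed in the array files.
ACTN1: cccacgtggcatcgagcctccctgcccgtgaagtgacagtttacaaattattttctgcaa
VASP: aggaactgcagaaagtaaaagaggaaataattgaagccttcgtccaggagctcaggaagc
MSN: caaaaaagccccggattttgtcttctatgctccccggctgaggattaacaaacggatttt
ARHGEF2: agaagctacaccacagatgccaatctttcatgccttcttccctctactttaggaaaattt
No other transcript on the array carried any of these 4 sequences. The share of G and C was 50% for ACTN1, 45% for VASP, 45% for MSN and 40% for ARHGEF2, against a median of 45% over the distinct sequences of the array. Positions in the horse genome are not given, since no genome of the array's build was used here.

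Every transcript had 2 spots per array, so ACTN1, VASP and ARHGEF2 were each read from 4 spots of 1 sequence and MSN from 2. All spots of the 7 transcripts were well above background on all 25 arrays, and none was saturated. A difference between the 2 transcripts of a gene is therefore a difference between repeated readings of the same sequence. Over the 25 horses this difference had an SD of 0.19 for ACTN1, 0.33 for VASP and 0.23 for ARHGEF2 on the log2 scale, and the median SD over the 238 pairs of tested transcripts that share a sequence in the same way was 0.29. The largest gap was in VASP of MEA 8 (the 8th horse of that group), where ENSECAT00000008154 stood at 6.32 and ENSECAT00000008066 at 7.71, a difference of 1.38. The 9 exact permutation tests of the difference between the 2 transcripts of a gene (3 genes in 3 comparisons, two-sided) gave exact p values from 0.16 to 0.98, and the lowest value after Benjamini-Hochberg adjustment was 0.73.

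**Figure D1:**
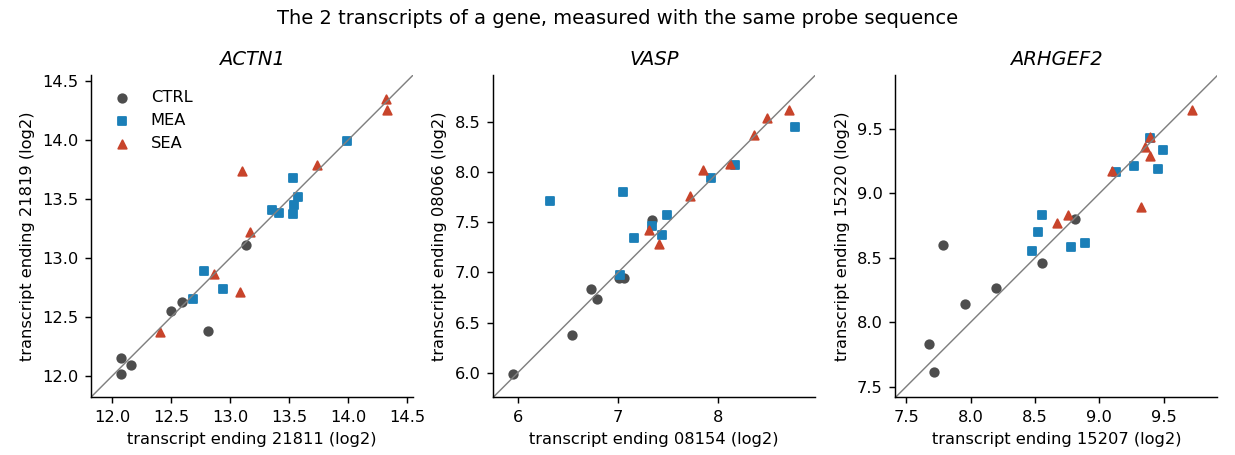
Normalized log2 intensity of the 2 transcripts of ACTN1, VASP and ARHGEF2 in each of the 25 horses (circles CTRL, squares MEA, triangles SEA), with the line of equal values. Most horses lie near the line, and the point farthest from it is MEA 8 in VASP, at 6.32 on one transcript and 7.71 on the other.

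The arrays differed in quality and the samples in cell content. Between 58.2% and 90.8% of an array's spots were well above background. Within groups, this share correlated with the 4 genes at r from -0.20 to 0.02. Markers of epithelial cells were lower in both diseases: of the 27 transcripts of 22 listed genes, 19 were called lower in MEA and 27 in SEA. Of 6 pan-leukocyte markers, 1 was called higher in MEA and 6 in SEA. In bulk samples such as these, fewer cells of a type and less RNA per cell cannot be told apart. In the study's own cell counts, the mean percentage of epithelial cells was not lower in MEA or in SEA than in CTRL. Macrophages prevailed among the counted cells of CTRL and MEA horses, and neutrophils among those of SEA horses. The study reports that its epithelial cell counts did not correlate with the expression of genes that act in cilia. How the marker means used here relate to the counts was not tested.

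In the account that follows, a level is a normalized log2 intensity, a difference is between group means on that scale, and a transcript is called where limma's Benjamini-Hochberg adjusted p lies below 0.1 and the fold change is at least 1.5. Levels are given for the mean of the spots that share a sequence. In MEA against CTRL, 6 of the 7 transcripts were called higher and none lower, beside 3.25% of all 4930 transcripts called higher and 6.53% called lower. In SEA against CTRL, 7 of 7 were called higher, beside 16% of all called higher and 16.7% called lower. In SEA against MEA none of the 7 was called, beside 1.44% higher and 0.791% lower of all. Both diseases were compared with the same 7 CTRL horses, so the comparisons share their error.

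ACTN1 was higher in both diseases. Its level ran from 12.04 to 13.12 in CTRL horses with a median of 12.52, from 12.67 to 13.99 in MEA horses with a median of 13.43, and from 12.39 to 14.34 in SEA horses with a median of 13.31. The groups overlapped: all 10 MEA horses lay above the CTRL median and 7 of them above every CTRL horse, while 7 of 8 SEA horses lay above the CTRL median and 5 above every CTRL horse. The SEA horses were the most spread out, with an SD of 0.70, while MEA horses had an SD of 0.41 and CTRL horses one of 0.38. Between MEA and CTRL, the difference was 0.86 ± 0.21 (SE; limma adjusted p = 0.0296) for ENSECAT00000021811 and 0.89 ± 0.21 (adjusted p = 0.0257) for ENSECAT00000021819. With a term for slide these were 0.75 and 0.78 (limma adjusted p = 0.104 and 0.101) and were no longer called. Between SEA and CTRL, it was 0.90 ± 0.29 (adjusted p = 0.0333) and 0.99 ± 0.30 (adjusted p = 0.0255), respectively. SEA and MEA differed by 0.04 and 0.10, with 95% intervals from -0.50 to 0.58 and from -0.46 to 0.67.

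VASP had the largest differences of the 4 genes between SEA and CTRL. Its level ran from 5.97 to 7.43 in CTRL (median 6.78), from 6.99 to 8.61 in MEA (median 7.41) and from 7.34 to 8.66 in SEA (median 8.01). All MEA and all SEA horses lay above the CTRL median, and 4 of 10 MEA and 6 of 8 SEA horses above every CTRL horse, so the groups overlapped in part. Between SEA and CTRL, the difference was 1.22 ± 0.25 (limma adjusted p = 0.00763) for ENSECAT00000008154 and 1.25 ± 0.26 (adjusted p = 0.00723) for ENSECAT00000008066. Between MEA and CTRL, it was 0.91 ± 0.23 (adjusted p = 0.0317) for ENSECAT00000008066 and 0.69 ± 0.29 (adjusted p = 0.162) for ENSECAT00000008154, which is the member that was not called. With a term for slide, ENSECAT00000008066 was not called either (0.84, adjusted p = 0.111). ENSECAT00000008154 was called without MEA 8 (0.82 ± 0.26, adjusted p = 0.0920), and the adjusted p without any other single horse was higher. With the 4 VASP spots averaged, a choice made after the data were seen, the difference was 0.80 ± 0.24 (adjusted p = 0.0684), a fold change of 1.74.

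MSN had the largest difference of the 4 genes between MEA and CTRL. Its level ran from 7.47 to 9.50 in CTRL (median 8.53), from 8.72 to 10.46 in MEA (median 9.75) and from 8.68 to 10.01 in SEA (median 9.47). In MEA, 8 of 10 horses lay above every CTRL horse, whereas in SEA 4 of 8 did, and all horses of both groups lay above the CTRL median. The MEA mean exceeded the CTRL mean by 1.28 ± 0.29 (limma adjusted p = 0.0235), a fold change of 2.43. The SEA mean exceeded it by 0.98 ± 0.28 (adjusted p = 0.0202), a fold change of 1.97. MSN was the single gene of the 4 with a lower mean in SEA than in MEA, but the difference of -0.30 did not pass the test (95% interval from -0.81 to 0.20, adjusted p = 0.480), and 7 of 8 SEA horses lay below the MEA median.

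ARHGEF2 was higher in both diseases. Its level ran from 7.67 to 8.80 in CTRL (median 8.19), from 8.52 to 9.41 in MEA (median 8.95) and from 8.72 to 9.68 in SEA (median 9.24). All diseased horses lay above the CTRL median, and 5 of 10 MEA and 6 of 8 SEA horses lay above the highest CTRL horse. Between MEA and CTRL, the difference was 0.90 ± 0.22 (limma adjusted p = 0.0270) for ENSECAT00000015207 and 0.72 ± 0.20 (adjusted p = 0.0476) for ENSECAT00000015220, which was no longer called without CTRL 4 (0.65, adjusted p = 0.115) or without CTRL 6 (0.61, adjusted p = 0.124), nor with a term for slide (0.71, adjusted p = 0.117). Between SEA and CTRL, it was 1.11 ± 0.22 (adjusted p = 0.00579) and 0.93 ± 0.21 (adjusted p = 0.00977). SEA and MEA differed by 0.22 and 0.21, with 95% intervals from -0.19 to 0.63 and from -0.16 to 0.59.

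**Figure D2:**
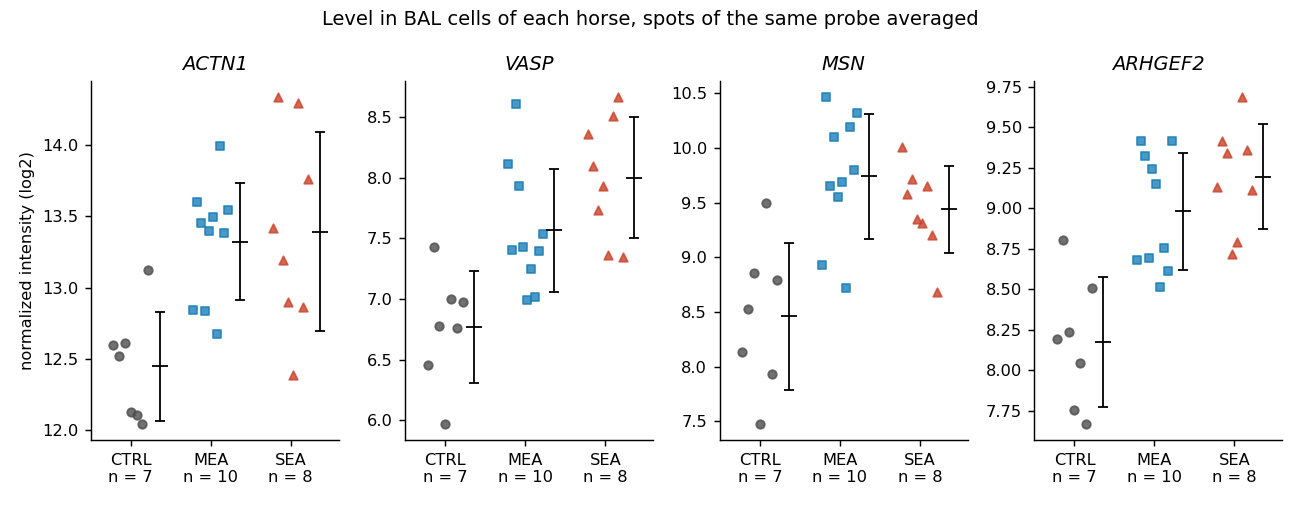
Normalized log2 intensity of each gene in each horse (points; circles CTRL, squares MEA, triangles SEA), with the spots of 1 probe sequence averaged, and the mean ± SD of each group (bars). Diseased horses lie mostly above the CTRL horses in all 4 panels; the scales of the panels differ, and levels of different probes cannot be set against each other.

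Some horses were low or high for more than 1 gene. CTRL 4 was the lowest CTRL horse for VASP and MSN, and CTRL 6 for ACTN1 and ARHGEF2. MEA 7 was the lowest MEA horse for ACTN1, MSN and ARHGEF2. Within groups, that is after each group mean was subtracted, ACTN1 and ARHGEF2 varied together over the 25 horses (Pearson r = 0.62, Spearman rho = 0.66, permutation p = 0.00112 for r and 0.000440 for rho, adjusted p = 0.00672 and 0.00264 over the 6 pairs of genes). Group by group it was 0.72 for CTRL, 0.54 for MEA and 0.72 for SEA horses, and 0.57 without SEA 2 and SEA 6, the horses farthest from the ACTN1 median. For ACTN1 and VASP r was 0.07 (rho -0.02, permutation p = 0.761 for r and 0.930 for rho, also as adjusted values). The 4 remaining pairs had r from 0.25 to 0.44 and adjusted permutation p values of 0.087 to 0.29 for r and 0.077 to 0.27 for rho. For comparison, the 2 transcripts read with the same sequence correlated at 0.93 for ACTN1, 0.82 for VASP and 0.82 for ARHGEF2.

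**Figure D3:**
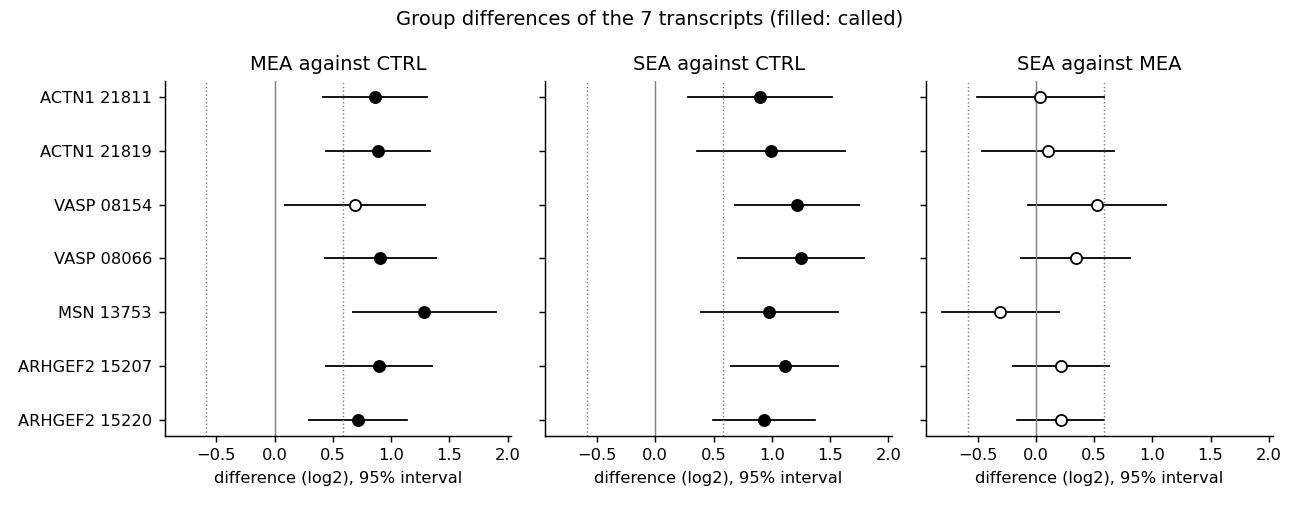
Difference between group means on the log2 scale for the 7 transcripts (rows, named by gene and the last 5 digits of the identifier) in the 3 comparisons, with limma's 95% interval; filled points were called, and dotted lines mark a fold change of 1.5 either way. All points lie to the right of 0 against CTRL, whereas every interval of SEA against MEA holds 0.

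With SEA set against MEA, the 7 differences ran from -0.30 to 0.52 with limma adjusted p values from 0.29 to 0.94. None had an unadjusted p below 0.05, and the rank sum version of SAM called 0 of 7. The widest interval was that of VASP ENSECAT00000008154, from -0.07 to 1.12. With the spots of a sequence averaged, the intervals of all 4 genes reached past a fold change of 1.5 in 1 direction, upward for ACTN1, VASP and ARHGEF2 and downward for MSN, so that these samples leave room for differences of that size between the 2 diseases.

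The arrays lay on 4 slides, each with horses of all 3 groups. Within slides, MEA exceeded CTRL on 4 of 4 slides for each of the 4 genes, by 0.29 to 1.17 for ACTN1, 0.22 to 1.19 for VASP, 0.95 to 1.36 for MSN and 0.41 to 1.197 for ARHGEF2. SEA exceeded CTRL on 4 of 4 slides for ACTN1, VASP and ARHGEF2 and on 3 of 4 for MSN, where the slide with 1 SEA and 1 CTRL horse gave -0.10. A slide held 1 to 5 horses of a group. Fitted with a term for slide, 2 of the 7 transcripts were called in MEA against CTRL (MSN and ENSECAT00000015207 of ARHGEF2). Of all 4930 transcripts, 54 were called higher and 129 lower in this fit. The differences of the 7 lay between 0.67 and 1.25. Their adjusted p values then lay between 0.086 and 0.29. In SEA against CTRL, 7 of 7 were called higher with this block, beside 801 of all 4930 called higher and 820 lower.

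Lists of other genes of the actin machinery were drawn from those that could be named, which were all differing transcripts of the study; among the 1684 named transcripts tested, 7.07% were called higher and 18.1% lower in MEA, and 42.2% higher and 44.1% lower in SEA. Counts of a list are read against these shares. The median difference was -0.09 in MEA and -0.38 in SEA over the named transcripts, and 0.03 and -0.01 over all 4930. Both directions are common among the named transcripts, so a list that holds rises and falls is not set apart by it.

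Of 30 transcripts of 18 genes that link actin to adhesion sites, 4 were called higher and 4 lower in MEA against CTRL, with a median difference of 0.15. In SEA, 15 were called higher and 13 lower, with a median of 0.64. The 4 called higher in MEA were all of PLEC, the crosslinker plectin, at 0.70 ± 0.22 for both of the 2 named by rule (limma adjusted p = 0.0731 and 0.0769), which share 1 probe sequence. In SEA, TLN1, the talin that activates integrins, rose by 1.06 ± 0.27 (adjusted p = 0.0150), and MYO9A, an unconventional myosin, by 1.14 ± 0.37 (adjusted p = 0.0347). The lowest value in SEA was that of LMO7, a protein of epithelial adherens junctions, at -2.44 ± 0.57 (adjusted p = 0.0117). The SEA mean of LMO7 was 3.81, also below 4.5.

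Of 21 transcripts of 16 genes of filament assembly and turnover, 1 was called higher and 2 lower in MEA, and 13 higher and 8 lower in SEA, so that all 21 were called in SEA. CORO1C, a coronin, rose in MEA (0.81 ± 0.24, limma adjusted p = 0.0650), while DSTN, which severs filaments, fell (-1.03 ± 0.30, adjusted p = 0.0620), as did ABI2 of the WAVE complex (-1.36 ± 0.44, adjusted p = 0.0804). In SEA, the formin FMNL1 rose by 1.51 ± 0.44 (adjusted p = 0.0236) and PSTPIP1 by 1.43 ± 0.47 (adjusted p = 0.0358), both known from blood cells. NCKAP1, the WAVE complex subunit used outside blood cells, changed by -2.18 ± 0.61 (adjusted p = 0.0195) and ABI2 by -1.86 ± 0.57 (adjusted p = 0.0273). APBB1IP, an adaptor between Rap1 and talin, was the one transcript of this list called between SEA and MEA (0.93 ± 0.19, adjusted p = 0.0542).

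Of the proteins that moesin and related linkers bind or resemble, none of 10 transcripts of 8 genes was called by limma in MEA (4 had an unadjusted p below 0.05), while 4 were called higher and 6 lower in SEA. CD44, the hyaluronan receptor that moesin anchors, rose in SEA by 1.41 ± 0.29 (limma adjusted p = 0.00738). EPB41L1, a band 4.1 protein, changed by -1.52 ± 0.49 and -1.83 ± 0.57 in 2 transcripts with 1 probe sequence (adjusted p = 0.0316 and 0.0283). The list of tight junction genes used here did not hold ACTN1, VASP, MSN or ARHGEF2. None of its 10 transcripts of 10 genes was called higher, while 5 were called lower in MEA and 9 in SEA. F11R (-1.27 ± 0.36, adjusted p = 0.0482) and CLDN8 (-1.43 ± 0.45, adjusted p = 0.0748) led in MEA, and CLDN7 (-2.32 ± 0.49, adjusted p = 0.00855) in SEA.

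**Figure D4:**
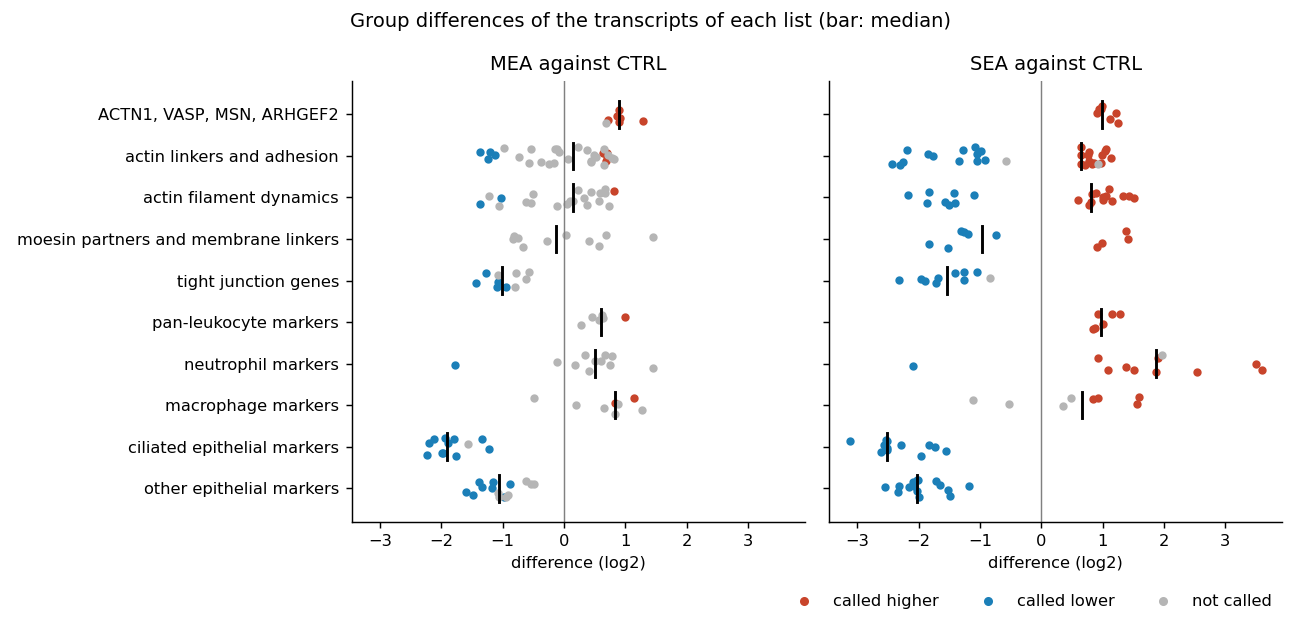
Difference between group means on the log2 scale for every tested transcript of the 4 genes, of the actin, moesin partner and tight junction lists and of the marker lists (points; red called higher, blue called lower, grey not called; bars, medians), in MEA and in SEA against CTRL. The 4 genes, the pan-leukocyte markers and the medians of both actin lists lie above 0, and both epithelial lists lie below 0. All were named from lists of transcripts that differed in these same horses, so these positions are not read as a result.

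The 4 genes were then set against leukocyte and epithelial markers. The pan-leukocyte mean was the mean level of PTPRC, ITGAL, LCP2, PTPN6, CD48 and CD84. It ran from 7.34 to 8.82 in CTRL (median 8.60), from 8.04 to 9.41 in MEA (median 8.99) and from 8.95 to 9.65 in SEA (median 9.32), so that all SEA horses stood above all CTRL horses. In SEA, PTPRC, the common leukocyte antigen CD45, rose by 1.28 (limma adjusted p = 0.00651), and LCP2, ITGAL, PTPN6, CD48 and CD84 rose by 0.84 to 1.15. In MEA, CD84 rose by 0.99 (adjusted p = 0.0863), and the other 5 differed by 0.28 to 0.63 without being called.

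The epithelial mean combined ciliated and other epithelial markers. The ciliated markers (DNAJB13, FOXJ1, IFT57, IFT88, RSPH4A, RSPH9, SPAG6, TEKT1, TEKT2 and WDR16) had a mean level of 9.08 to 10.75 in CTRL, 5.73 to 10.07 in MEA and 4.04 to 9.36 in SEA. All 12 of their transcripts were called lower in SEA, and 11 in MEA, where WDR16 differed by -1.57 (limma adjusted p = 0.161). The other epithelial markers (12 genes, among them CDH1, CLDN7, CXADR, DSP, EPCAM, KRT18, MUC1, PKP3, RAB25, SPDEF and SPINT1) had 15 of 15 transcripts called lower in SEA and 8 in MEA. The 7 not called in MEA were those of CDH1, CLDN7, CXADR, MUC1 and SPDEF and 2 of the 3 transcripts of DSP.

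The names of the genes and markers all come from lists of transcripts chosen for a change in these same horses. The direction of the group differences was therefore fixed by that choice and is not a result. That direction was higher for the actin genes and the pan-leukocyte markers and lower for the epithelial markers. The pan-leukocyte mean differed by 0.59 between MEA and CTRL and by 1.01 between SEA and CTRL, and the epithelial mean by -1.40 and -2.11. Each gene's level minus the pan-leukocyte mean was compared between groups with two-sided exact permutation tests, chosen after the data were seen. They were adjusted over 24 tests, which include differences from the epithelial mean. Those differences are in part set by the choice of names and are not used. Small p values of those unused tests lower the adjusted values of the others. The adjusted values below are therefore too low and are not read as passing a threshold. The genes and the pan-leukocyte markers were both named for a change, so small differences between them are in part set by that choice. Relative to the pan-leukocyte mean, ACTN1, VASP and ARHGEF2 differed between MEA and CTRL by 0.28, 0.21 and 0.22 (adjusted p = 0.43, 0.43 and 0.49 by the exact test). Between SEA and CTRL they differed by -0.07, 0.22 and 0.01 (adjusted p = 0.93, 0.49 and 0.97 by the exact test). MSN differed by -0.04 between SEA and CTRL on this scale (adjusted p = 0.97 by the exact test), but it exceeded the leukocyte markers by 0.69 in MEA over CTRL (exact p = 0.0195, adjusted 0.0469), while SEA stood 0.73 below MEA on the same measure (exact p = 0.0138, adjusted 0.0368). Without single horses these 2 MSN differences ran from 0.59 to 0.82 and from -0.85 to -0.57. Their adjusted exact p then reached 0.105 and 0.0794, and it was 0.0628 and 0.0699 with 75th percentile scaling in place of cyclic loess. These values are too low for the same reason, and neither MSN difference was stable or is read as a result. The study names MSN as higher in MEA, where 5 of the 6 pan-leukocyte markers were not called. The choice of names thus favors an excess of MSN over these markers in MEA.

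Within groups, the same question was asked over the 25 horses with each group mean subtracted. All 7 transcripts correlated more with the pan-leukocyte mean than with the epithelial mean, beside 53% of the 4897 tested transcripts outside these marker lists, the 7 included. The 7 and both marker sets were named for a change between groups, and no share among transcripts so named is given. The count is therefore a description and is not read as a trait of the 4 genes. With the macrophage marker mean in place of the pan-leukocyte mean, ENSECAT00000008154 of VASP was the exception (r = -0.21, against -0.13 to the epithelial mean), and ENSECAT00000021811, ENSECAT00000008066 and ENSECAT00000015220 also had r below 0, at -0.01, -0.11 and -0.10. The 7 transcripts are 4 sequences, and the 2 marker means themselves correlated at r = -0.36. For VASP, r to the leukocyte mean of ENSECAT00000008066 was 0.56 and rho 0.63 (permutation p = 0.00535 and 0.00133, adjusted over 14 relations 0.0374 and 0.00929), and that of ENSECAT00000008154 was 0.51 and rho 0.59 (permutation p = 0.00977 and 0.00199, adjusted 0.0449 and 0.00929). Its r to the epithelial mean was -0.17 and -0.13 (rho -0.23 and -0.15), with adjusted permutation p values of 0.35 or more for r and for rho. MSN was lower where epithelial markers were higher (r = -0.51, rho = -0.58, permutation p = 0.00279 and 0.00191, adjusted 0.0374 and 0.00929), and its r to the leukocyte mean was 0.43 (rho 0.34, permutation p = 0.0577 and 0.129, adjusted 0.135 and 0.204).

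For ARHGEF2, r to the leukocyte mean was 0.53 (rho 0.46, permutation p = 0.0128 and 0.0276, adjusted 0.0449 and 0.0797) for ENSECAT00000015207 and 0.22 (rho 0.26, permutation p = 0.337 and 0.243, adjusted 0.429 and 0.309) for ENSECAT00000015220, which reads the same sequence. Without CTRL 1 these r values were 0.52 and 0.43, and with normexp background correction 0.54 and 0.58. The order of the 4 genes by r changed with the normalization, and differences between their r values were not tested. For ACTN1, r was 0.32 and 0.42 (rho 0.27 and 0.38), with adjusted permutation p values of 0.16 and 0.058 for r and 0.25 and 0.11 for rho. The r of ACTN1 and ARHGEF2 to the epithelial mean lay between -0.38 and -0.14 (rho between -0.45 and -0.22), with adjusted permutation p values of 0.16 or more for r and 0.080 or more for rho. Without CTRL 1 and CTRL 4, the horses farthest from the median of the leukocyte mean, r to it lay between 0.36 and 0.51 for the 7 transcripts. Without SEA 1 and SEA 3, those farthest from the median of the epithelial mean, r to the epithelial mean lay between -0.49 and -0.11.

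Within single groups r rests on 7 to 10 horses and is given as a description, and differences between groups were not tested. With the spots of a sequence averaged, r to the leukocyte mean in SEA was 0.85 for ACTN1 and 0.76 for ARHGEF2 but 0.24 for VASP and -0.23 for MSN. In CTRL it was 0.74 for MSN, 0.68 for VASP, 0.42 for ARHGEF2 and 0.24 for ACTN1. In MEA it was 0.69 for VASP and lay between 0.22 and 0.36 for the other 3. In all 3 groups, all 4 genes had a negative r to the epithelial mean, from -0.79 for MSN in CTRL to -0.07 for VASP in SEA.

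**Figure D5:**
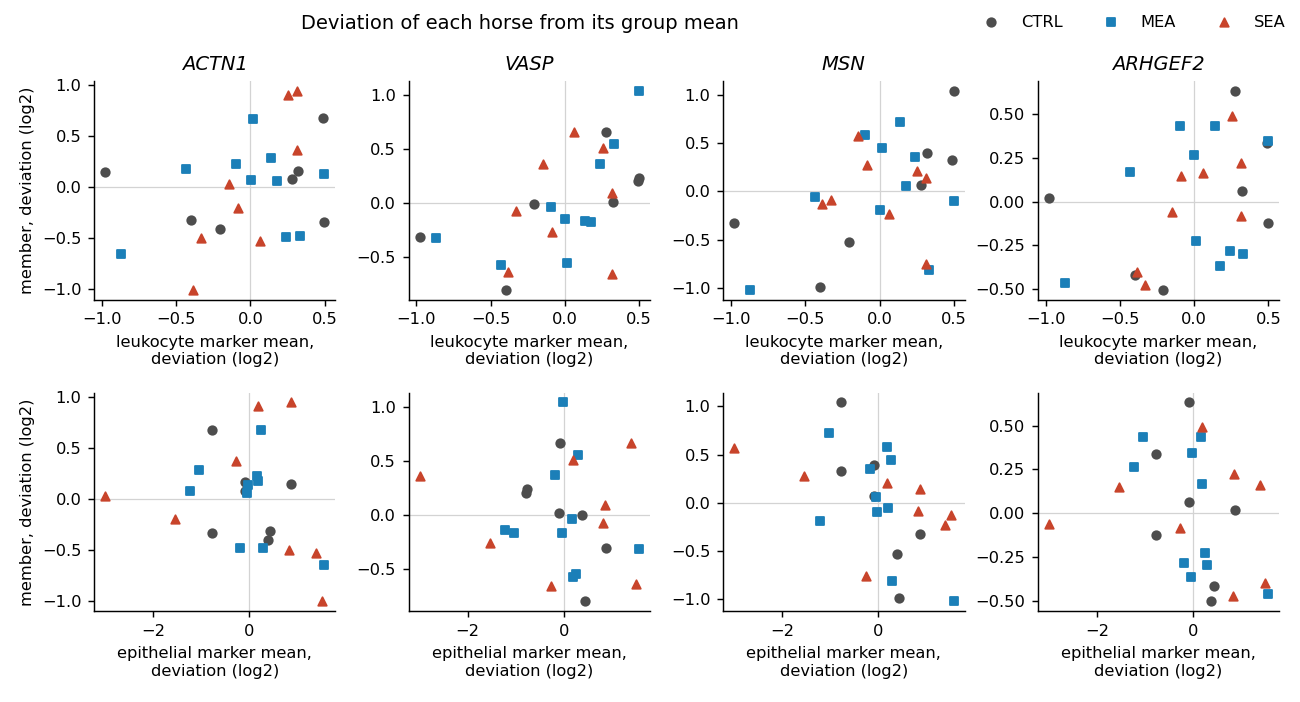
Deviation of each horse from its group mean on the log2 scale: each gene (vertical axis) against the pan-leukocyte marker mean (upper row) and the epithelial marker mean (lower row), for 25 horses (circles CTRL, squares MEA, triangles SEA). Points rise from left to right for VASP in the upper row (r = 0.56), and fall for MSN in the lower row (r = -0.51).

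Markers of single leukocyte types were set beside the 4 genes in the same way. The mean of the neutrophil markers correlated with VASP at r = 0.46 and with ARHGEF2 at 0.42, with ACTN1 at 0.21 and with MSN at -0.18. The mean of the macrophage markers, in contrast, correlated with MSN at 0.48 and with VASP at -0.18, with ACTN1 at 0.10 and with ARHGEF2 at 0.03. The lymphocyte markers gave 0.42 for ARHGEF2, 0.29 for ACTN1, 0.25 for VASP and -0.09 for MSN. Marker by marker, MSN had a positive r with 7 of 8 macrophage transcripts and 4 of 11 neutrophil transcripts, and VASP with 4 of 8 and 10 of 11. Between groups, 0 of 11 neutrophil transcripts were called higher in MEA and 9 in SEA. Of 8 macrophage transcripts, 2 were called higher in MEA, both of 1 gene, and 4 in SEA. Of 11 lymphocyte transcripts, 0 were called higher in MEA and 7 in SEA. Among those 11, 1 had an unadjusted limma p below 0.05 in MEA and 1 was called lower in SEA. These are descriptions over the same 25 arrays, and differences between these r values were not tested. LTF, a granule gene of maturing neutrophils that airway glands also make, was the 1 neutrophil marker that was called lower, by -1.77 in MEA and -2.10 in SEA.

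The named transcripts whose levels ran most like those of each gene, out of 1677 compared, were found by Pearson r over the 25 horses after subtracting group means. For ACTN1 they were TNFRSF10A (r = 0.76), TCIRG1 (0.74), IL1RAP (0.73), FNIP2 (0.66) and FNDC3B (0.65). For VASP they were DOCK8 (0.81), SIRPG (0.75), MAP3K2 (0.73), CYTH4 (0.72) and PXK (0.70). For MSN they were ZEB2 (0.65), DOCK2 (0.64), ADCY7 (0.64), APP (0.63) and ARHGEF6 (0.62). For ARHGEF2 they were XG (0.79), IL1RAP (0.74), GAS7 (0.72), SERPINE2 (0.72) and a second SIRPG transcript (0.72). DOCK8, DOCK2 and ARHGEF6 are exchange factors for small GTPases, and IL1RAP, the shared chain of interleukin-1 family receptors, was near both ACTN1 and ARHGEF2. The highest r values of this kind were chosen from many, and no test is given for them.

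The differences between groups were also fitted beside measures of cell content. With the percentage of epithelial cells that the study had counted in each horse as a covariate, 0 of 4930 transcripts were called by limma in MEA against CTRL (610 had an unadjusted p below 0.05, 6 of the 7 among them), while the 7 member differences lay between 0.67 and 1.49. In SEA against CTRL, 7 of 7 were called higher with the same covariate, beside 737 of all 4930 called higher and 801 lower. With the pan-leukocyte mean as a covariate, added after the data were seen, none of the 4930 transcripts was called by limma in either comparison with CTRL (472 and 183 had an unadjusted p below 0.05, 6 and 0 of the 7 among them), and the member differences lay between 0.26 and 0.85 in MEA and between 0.25 and 0.71 in SEA. With the epithelial marker mean, also added later, they lay between 0.42 and 0.63 in MEA with 0 of 7 called (unadjusted limma p below 0.05 for 1). In SEA they lay between 0.51 and 1.098 with 4 of 7 called, both transcripts of VASP and of ARHGEF2. Of all 4930, 355 were called higher and 99 lower in that SEA fit. These marker means differ between the groups themselves and were made of transcripts chosen for a change, so that group and cell content cannot be told apart by these fits.

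With transcripts of 1 probe sequence averaged before the fit, 4571 sequences were tested and all 4 genes were called higher in MEA (3.13% of all sequences) and in SEA (15.7%), and none between SEA and MEA (1.44%). The differences were then 0.88 ± 0.21 for ACTN1, 0.80 ± 0.24 for VASP and 0.81 ± 0.20 for ARHGEF2 in MEA (limma adjusted p = 0.0263, 0.0684 and 0.0306). In SEA they were 0.95 ± 0.29, 1.23 ± 0.25 and 1.02 ± 0.20 (adjusted p = 0.0276, 0.00728 and 0.00645).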

How the data were processed

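BAL cell RNA of 25 horses was hybridized to 25 arrays. Per spot, the authors deposited background-subtracted intensities from Feature Extraction 9.5.1.1, and for all arrays linear intensities after cyclic loess; the units were checked on the values. No 2 arrays were identical. Here, log2 intensities were normalized by cyclic loess (span 0.7, 3 iterations), flagged spots (165 over the 25 arrays, each with 14476 spots) were left out, both spots of a transcript were averaged, and a transcript was dropped if it lay below 4.5 in 19 or more of the 25 arrays. Values correlated with the authors' table at r = 0.999. R 4.3.3 with limma 3.58.1 (lmFit, eBayes) was used, each comparison fitted on its 2 groups. limma replaced SAM, which the methods name, because it gives errors; the rank sum SAM (100 permutations) was an alternative. The number of arrays limits the precision. The steps were tested on simulated data. Permutation tests of correlations used 1e+05 shuffles within groups. Nothing states more than 1 sample per horse, so p-values measure spread between horses.

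The genes, lists and tests were chosen with earlier results of these data known. Symbols came from the study's lists of differing transcripts (1865, of which 1684 were tested). Named genes were all members; at most 2 called rises and 2 falls per list and comparison; the 5 nearest named transcripts of each gene; and every leukocyte and epithelial marker, except some genes that are not reported here. LTF was named after its values were seen. Alternatives were 75th percentile, quantile and normexp (offset 50) processing, the authors' values, no intensity filter or one on spots well above background in 7 arrays, trend and robust settings, a stricter adjusted p of 0.05, dropping the fold change minimum, 1 fit of 25 arrays, blocks for slide, scan date and replicate number, covariates and each horse left out. Normalization alternatives kept the same 4930 transcripts. Averaging of equal probe sequences, marker means as covariates and differences from marker means were added after the data were seen. The authors' own fold changes were not used.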

Additional observations from a re-analysis of the deposited data

How the results depend on the processing

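The 7 transcripts kept a higher mean in MEA and in SEA than in CTRL under every alternative run. In MEA against CTRL, 6 of the 7 and 482 of all transcripts were called. The total was 157 with normexp background correction (19.1% of calls higher, against 33.2%), 821 with SAM, 210 at an adjusted p below 0.05, 183 with slide and 220 with scan date as a block, 0 with the epithelial percentage or the pan-leukocyte mean as a covariate and 1 with the epithelial marker mean. Of the 7, 2 were called with slide as a block and 0 with each of these 3 covariates. In SEA against CTRL, 7 of the 7 and 1612 in all were called, against 842 with normexp, 0 (of the 7, 0) with the pan-leukocyte mean and 454 (of the 7, 4) with the epithelial marker mean. In SEA against MEA, 110 were called in all and 0 of the 7 under any alternative. The total was 0 with 75th percentile scaling, which put the median of all transcripts at -0.11 in place of -0.04, 24 with quantile normalization (83.3% of calls higher, against 64.5%; 76% with the authors' values), 0 with normexp, 662 with SAM, 2 at an adjusted p below 0.05 and 279 with all arrays in 1 fit. It was 0 with slide, 2 with scan date, 37 with the epithelial percentage, 219 with the share of spots above background, 0 with the pan-leukocyte mean and 241 with the epithelial marker mean. The differences of MSN from the pan-leukocyte mean had adjusted exact p values of 0.0628 (MEA over CTRL) and 0.0699 (SEA against MEA) with 75th percentile scaling. The cause of these changes was not tested.

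Without single horses, the total ran from 156 (without CTRL 1) to 750 (without MEA 7) in MEA against CTRL and from 2 (without SEA 2) to 559 (without MEA 3) in SEA against MEA, where leaving out any 1 of the 18 horses moved it by over 1.5 times. The former also moved by over 1.5 times without CTRL 4 (195), CTRL 6 (177) and MEA 2, 5, 9 and 10 (291 to 320). Of the 7 transcripts, 5 to 7 were called in MEA and 7 in SEA against CTRL, where the total ran from 1238 to 1706.

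Replicate numbers were shared between groups but did not pair the horses: deviations of same-numbered horses correlated at -0.44 to 0.37 in MEA and CTRL, and at most 2 of 8 correlated best with their own number. With the replicate block, 138 transcripts and 1 of the 7 (ENSECAT00000015207 of ARHGEF2, adjusted p = 0.0990 by limma) were called in MEA against CTRL, 1360 and 7 in SEA against CTRL, and 0 in SEA against MEA. In the same horses without the block the totals were 84 (1 of the 7), 1530 and 0.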

Other observations

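Shared probe sequences were not limited to the actin genes. Over the whole array, 7238 transcripts carried 6693 distinct sequences, and 431 sequences were each given to more than 1 transcript, to 976 transcripts in all and to at most 7 transcripts each. Of the 4930 transcripts tested, 650 shared a sequence with another one that was tested. Among the lists described above, the 30 transcripts of adhesion linkers rested on 19 sequences and the 21 of filament dynamics on 16. The counts of transcripts called in those lists therefore count some measurements more than once, and PLEC and EPB41L1 entered with several transcripts of 1 sequence.

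Single spots of the members also differed within an array. The median gap between the 2 spots of a transcript lay between 0.07 and 0.24 on the log2 scale for the 7 transcripts, against a median of 0.16 over all tested transcripts. The largest gaps were 1.59 for ENSECAT00000008154 of VASP in MEA 5, 1.496 for ENSECAT00000021819 of ACTN1 in SEA 1 and 1.34 for ENSECAT00000021811 of ACTN1 in MEA 1.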
